A study of Homo sapiens with 2 samples.

Results

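The 10 genes described here code for enzymes that make, activate or inactivate androgens from circulating precursors: CYP17A1, HSD3B1, AKR1C3, SRD5A1, SRD5A3, HSD17B4, HSD17B10, HSD17B11, STS and SULT2B1. They were taken by gene symbol, 10 of the 36601 genes in each deposited matrix, and each symbol was present in both. The libraries are single-cell RNA-Seq of LNCaP_C4-2B and of LNCaP_FGC, 1 library of each. LNCaP_FGC is the widely distributed subline of a human prostate carcinoma line grown from a lymph node metastasis, and it was never selected as a single clone. LNCaP_C4-2B is a castration-resistant strain derived from LNCaP by passage in castrated mice. Both were cultured in RPMI1640 with 10% fetal bovine serum and 1% penicillin and streptomycin, with no drug and no hormone depletion, and the cells come from culture and not from a tumor.

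A prostate cell can build active androgen from adrenal precursors, a route called intracrine synthesis. CYP17A1 makes dehydroepiandrosterone (DHEA) from pregnenolone, HSD3B1 turns DHEA into androstenedione, AKR1C3 reduces androstenedione to testosterone, and SRD5A1 reduces the steroid ring on the way to dihydrotestosterone. Oxidative 17-beta-hydroxysteroid dehydrogenases (HSD17B4, HSD17B10, HSD17B11) act in the reverse direction on the same carbon, while the sulfatase STS frees DHEA from its sulfate and the sulfotransferase SULT2B1 adds sulfate to cholesterol and related sterols. Several of these proteins are known better for other work. HSD17B4 is the peroxisomal bifunctional enzyme of fatty acid oxidation, HSD17B10 is a mitochondrial dehydrogenase of isoleucine breakdown and a subunit of mitochondrial RNase P, and SRD5A3 acts in the making of dolichol for protein glycosylation.

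Each library held 1850 cells and a mean of 19000 unique molecular identifiers (UMIs, counted molecules) per cell, because the authors had thinned both to that depth. The totals were 35149989 UMIs in LNCaP_C4-2B and 35150013 UMIs in LNCaP_FGC, so that 1 UMI was worth 0.0284 CPM (UMIs scaled to the same total in each library) in either. A floor of 3 UMIs per library equals 0.0853 CPM, and by the same 3 counts the floor for a share of 0 of 1850 cells is 0.162%. The exact interval of such a share reaches 0.199% of cells with a UMI, which does not limit the share of cells that express a gene. No cell barcode was shared (0 of 1850). All 9 prostate luminal markers examined were measured, with KLK3 (prostate-specific antigen) at 2770 CPM in LNCaP_C4-2B and 781 CPM in LNCaP_FGC. The summed level of 8 markers of adrenal and gonadal steroid-making cells was 3.02 CPM in LNCaP_C4-2B, of which CYP11A1 alone gave 2.62 CPM, and 2.73 CPM in LNCaP_FGC, of which it gave 2.19 CPM, and NR5A1, the master regulator of such cells, had 0 UMIs in both.

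Since there was 1 library per line, no test between the lines was possible. Intervals are exact 95% intervals that cover counting error only, not the spread between cultures, and PCR and cell capture add to it. The batch label differed between the libraries, so that line and batch cannot be told apart. The median gene had a log2 CPM ratio of LNCaP_C4-2B over LNCaP_FGC of -0.49, 1.40-fold lower. Calls were made against that median, higher for a gene 1.5-fold or more above it and lower for a gene 1.5-fold or more below it. Of 17897 genes that had 10 UMIs or more in the libraries together, 26.0% were called higher and 26.4% lower. Cells of LNCaP_C4-2B also gave a larger share of mitochondrial UMIs, 8.35% against 6.27% in LNCaP_FGC, and of ribosomal protein UMIs, 28.2% against 23.2%, and the part of either in the ratios was not tested beyond rescaling.

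Among the 10 enzyme genes, 8 passed the filter of 10 UMIs, and of these 2 were called higher in LNCaP_C4-2B (HSD17B10 and SULT2B1), 3 lower (AKR1C3, HSD17B11 and STS) and 3 neither (SRD5A1, SRD5A3 and HSD17B4). Against 26.0% and 26.4% of all tested genes, these are counts of the size that the background gives, and the median log2 ratio of the 8 genes was -0.93, or -0.44 relative to the median gene. CYP17A1 and HSD3B1 did not reach the filter. At a 2-fold threshold 0 genes remained higher and 1 lower (AKR1C3). AKR1C3 had 0 UMIs in LNCaP_C4-2B, so that it is called lower at any threshold. Its exact interval allows a level as little as 1.60-fold below the median gene. With a filter of 100 UMIs, 1 gene was higher (HSD17B10) and 3 lower (SRD5A1, HSD17B11 and STS).

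**Figure D1:**
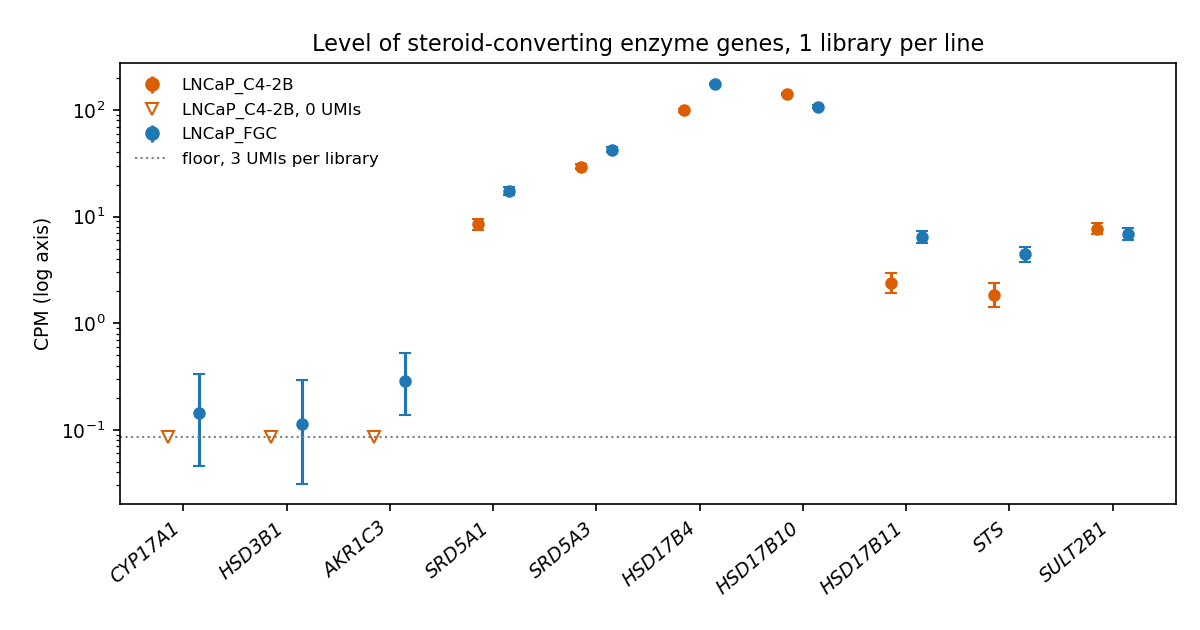
CPM (log axis) of the 10 enzyme genes in LNCaP_C4-2B (orange, left of each pair) and LNCaP_FGC (blue, right), with exact 95% Poisson intervals and open triangles at the floor of 0.0853 CPM for genes with 0 UMIs. HSD17B10 is the most abundant in LNCaP_C4-2B at 142 CPM, HSD17B4 in LNCaP_FGC at 175 CPM, and AKR1C3, HSD3B1 and CYP17A1 have no UMI in LNCaP_C4-2B.

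Levels are UMIs at transcript 3′ ends, not scaled by length, and capture differs between genes, so their order is a description. In LNCaP_C4-2B, HSD17B10 at 142 CPM stood above HSD17B4 at 99.2 CPM and SRD5A3 at 29.5 CPM. SRD5A1 (8.48 CPM, 7.54 to 9.50) and SULT2B1 (7.71 CPM, 6.82 to 8.68) had overlapping intervals there, and so did HSD17B11 (2.39 CPM, 1.91 to 2.96) and STS (1.85 CPM, 1.43 to 2.36). In LNCaP_FGC the order at the top was reversed, with HSD17B4 at 175 CPM above HSD17B10 at 107 CPM, followed by SRD5A3 at 42.5 CPM and SRD5A1 at 17.4 CPM. SULT2B1 (6.91 CPM, 6.07 to 7.84) and HSD17B11 (6.49 CPM, 5.67 to 7.39) overlapped in LNCaP_FGC, and STS lay below them at 4.44 CPM (3.77 to 5.19).

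The enzymes that open the route from precursors were at or near the limit of detection. CYP17A1, on the minus strand of chromosome 10 (chr10:102830531-102837472, GRCh38) where WBP1L overlaps it on the other strand, had 0 UMIs in LNCaP_C4-2B and 5 UMIs in 5 cells of LNCaP_FGC (0.142 CPM). HSD3B1 (chr1:119507198-119515054, plus strand) had 0 UMIs in LNCaP_C4-2B and 4 UMIs in 4 cells of LNCaP_FGC (0.114 CPM). For neither gene did the counts separate the lines, since the interval of the ratio reached 1.09 for CYP17A1 and 1.51 for HSD3B1. The canonical transcript of HSD3B1 is 91.5% identical to that of HSD3B2, so reads between the pair could be misplaced, and HSD3B2 had 0 UMIs in both lines.

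AKR1C3 (chr10:5035354-5107686, plus strand) had 0 UMIs in LNCaP_C4-2B and 10 UMIs in LNCaP_FGC, each in a different cell, which is 0.284 CPM and 0.541% of cells (0.260% to 0.992%). Set against the floor of 3 UMIs per library, its level was at least 3.33-fold lower in LNCaP_C4-2B, while the exact interval of the ratio, which ended at 0.446, allows a level as little as 2.24-fold lower. The call rests on those 10 UMIs, and each subset of cells that was tried brought it under the filter. The canonical transcript of AKR1C3 is 90.1% identical to those of AKR1C1 and AKR1C2 and 87.0% to that of AKR1C4. The last 500 bases of these transcripts, where 3′ reads fall, aligned with AKR1C3 over 489 bases in AKR1C4 (83.4% identity) but over only 10 bases in AKR1C1 and 35 in AKR1C2, which have longer canonical transcripts, and whether reads were split between the copies was not tested. AKR1C2 had 0 UMIs in LNCaP_C4-2B and 18 in LNCaP_FGC, and passing the filter through LNCaP_FGC alone fixed its call of lower. AKR1C1 had 0 and 6 UMIs and did not reach the filter, and AKR1C4 had 0 in both lines. Thus no UMI of the AKR1C1 to AKR1C4 family was counted in 1850 LNCaP_C4-2B cells.

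SRD5A1 and SRD5A3 belong to the reductases that saturate a steroid or polyprenol double bond. SRD5A1 (chr5:6633427-6674386, plus strand) had 298 UMIs in LNCaP_C4-2B and 613 UMIs in LNCaP_FGC, 8.48 CPM against 17.4 CPM. That was 2.06-fold lower (1.79 to 2.37) by CPM and 1.47-fold below the median gene (1.28 to 1.69), just outside the threshold, and therefore not called. It was called lower in G1 cells, in cells thinned to equal depth and with a filter of 100 UMIs, so that its side of the threshold depended on these choices. SRD5A3 (chr4:55346213-55373100, plus strand, overlapped by SRD5A3-AS1 on the other strand) had 1036 UMIs in LNCaP_C4-2B and 1495 UMIs in LNCaP_FGC, 29.5 CPM against 42.5 CPM. Its CPM was 1.44-fold lower (1.33 to 1.56). Set against the median gene its log2 ratio was -0.04, so that SRD5A3 lay beside the middle of all genes. SRD5A2, the reductase that predominates in normal prostate, had 0 UMIs in both lines.

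HSD17B10 (chrX:53431258-53434370, minus strand) had the highest ratio of the 10 enzyme genes, with 4976 UMIs there and 3760 UMIs in LNCaP_FGC, 142 CPM against 107 CPM. The CPM ratio was 1.32 (1.27 to 1.38), and the level stood 1.85-fold above the median gene (1.78 to 1.93). HSD17B4 (chr5:119452465-119637199, plus strand) showed the opposite sign, with 3487 UMIs in LNCaP_C4-2B and 6142 UMIs in LNCaP_FGC, 99.2 CPM against 175 CPM, which was 1.76-fold lower (1.69 to 1.84). That lay 1.26-fold below the median gene (1.21 to 1.31), and HSD17B4 was called neither. HSD17B11 (chr4:87336515-87391188, minus strand), a lipid droplet enzyme that oxidizes androstanediol, had 84 UMIs in LNCaP_C4-2B and 228 UMIs in LNCaP_FGC, 2.39 CPM against 6.49 CPM. It was 2.71-fold lower (2.10 to 3.53), or 1.94-fold below the median gene (1.502 to 2.52), the lowest ratio of the 7 enzyme genes that were detected in both lines.

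The enzymes of sulfate removal and addition differed in sign. STS (chrX:7147237-7804358, plus strand, overlapped by PUDP on the other strand) had 65 UMIs in LNCaP_C4-2B and 156 UMIs in LNCaP_FGC, 1.85 CPM against 4.44 CPM, 2.40-fold lower (1.79 to 3.26) and 1.71-fold below the median gene (1.27 to 2.32). SULT2B1 (chr19:48552172-48599425, plus strand) had 271 UMIs in LNCaP_C4-2B and 243 UMIs in LNCaP_FGC, 7.71 CPM against 6.91 CPM. The interval of its CPM ratio, 1.115 (0.934 to 1.33), included 1, and SULT2B1 was called higher only because it lay 1.56-fold above the median gene (1.31 to 1.87), just inside the threshold. With G1 cells only its log2 ratio was -0.12, and without the LNCaP_FGC cells that had 0 ETV1 UMIs it was -0.13, against 0.16 over all cells, and the call ended in both cases.

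Genomic span, which differs widely among these genes, moved with the ratio over all genes. Genes under 20 kb had a median log2 ratio of 0.22 relative to the median gene and genes of 100 kb or more -0.15. HSD17B10 spans 3.11 kb, HSD17B4 185 kb and STS 657 kb, and the part of span in their ratios was not tested.

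The promoter windows of the 10 genes fell into a CpG-rich and a CpG-poor set. All 10 had a window in the RefSeq table (GRCh38.p14, 250 bases before to 50 after the transcription start), and the window at the canonical start was used, which for AKR1C3 lies inside the annotated gene. A window was counted as CpG-rich at a ratio of observed to expected CpG of at least 0.6 and a GC content of at least 50%, which 46.9% of the 35116 windows in the table met. SRD5A1, SRD5A3, HSD17B4, HSD17B10, HSD17B11 and STS were CpG-rich, with 18 to 33 CpG each, and these 6 were all detected in both lines. AKR1C3 with 0 CpG, HSD3B1 with 1 and CYP17A1 with 3 were the CpG-poor windows of the genes at or near the floor, whereas SULT2B1, with 15 CpG in a window of 70.7% GC (ratio 0.403), was CpG-poor and detected. Shown are the windows of SRD5A1 and HSD17B10, as examples of detected genes, and of the 3 genes with no UMI in LNCaP_C4-2B, each 5′ to 3′ on the coding strand with every CpG in capitals.

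SRD5A1 (chr5:6633190-6633489, plus strand): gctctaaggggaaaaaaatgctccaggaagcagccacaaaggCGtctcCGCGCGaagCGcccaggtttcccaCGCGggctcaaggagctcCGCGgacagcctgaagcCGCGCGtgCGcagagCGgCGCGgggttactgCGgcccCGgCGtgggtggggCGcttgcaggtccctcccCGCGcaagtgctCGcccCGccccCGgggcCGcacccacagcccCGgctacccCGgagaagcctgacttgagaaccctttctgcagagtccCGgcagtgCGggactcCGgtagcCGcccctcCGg
HSD17B10 (chrX:53434321-53434620, minus strand): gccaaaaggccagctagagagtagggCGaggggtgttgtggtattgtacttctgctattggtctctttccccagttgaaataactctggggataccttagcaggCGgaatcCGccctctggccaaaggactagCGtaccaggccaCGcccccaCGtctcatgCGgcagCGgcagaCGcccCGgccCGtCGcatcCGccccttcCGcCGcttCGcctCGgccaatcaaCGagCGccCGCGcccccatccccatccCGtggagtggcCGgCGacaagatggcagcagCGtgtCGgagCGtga
AKR1C3 (chr10:5094164-5094463, plus strand): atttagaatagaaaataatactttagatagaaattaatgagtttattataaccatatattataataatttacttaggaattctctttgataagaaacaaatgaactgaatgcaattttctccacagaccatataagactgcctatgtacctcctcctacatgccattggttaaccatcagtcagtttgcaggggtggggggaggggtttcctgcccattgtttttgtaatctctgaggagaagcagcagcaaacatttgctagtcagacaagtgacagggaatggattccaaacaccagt
HSD3B1 (chr1:119506960-119507259, plus strand): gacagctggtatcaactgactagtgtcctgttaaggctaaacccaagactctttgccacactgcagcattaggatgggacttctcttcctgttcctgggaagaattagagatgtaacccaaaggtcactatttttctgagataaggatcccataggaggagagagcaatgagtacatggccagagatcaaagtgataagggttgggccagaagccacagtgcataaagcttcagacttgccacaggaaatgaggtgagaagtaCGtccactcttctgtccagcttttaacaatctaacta
CYP17A1 (chr10:102837364-102837663, minus strand): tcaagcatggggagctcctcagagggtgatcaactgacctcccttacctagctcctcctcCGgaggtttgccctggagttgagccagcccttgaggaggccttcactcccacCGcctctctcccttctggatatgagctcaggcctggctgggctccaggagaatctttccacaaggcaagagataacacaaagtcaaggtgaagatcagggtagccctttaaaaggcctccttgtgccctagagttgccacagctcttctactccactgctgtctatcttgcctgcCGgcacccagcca

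The capitals run through most of the SRD5A1 window, are densest in the later part of the HSD17B10 window and are absent from AKR1C3. Searched on both strands, the GC box GGGCGG was in 6 of the 10 windows (45.0% of all windows) and the TATA box TATAAA in 0 of 10 (11.5% of all windows). A match is a description of these letters, and so is the lack of one. No chromatin measurement was used here.

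Shares of positive cells followed the levels. Cells were thinned to 11901 UMIs each, which left out 185 of 1850 LNCaP_C4-2B cells and 227 of 1850 LNCaP_FGC cells that were shallower. HSD17B10 then had a UMI in 80.7% of LNCaP_C4-2B cells (78.7% to 82.6%) and 72.5% of LNCaP_FGC cells (70.3% to 74.7%), against 89.5% and 84.3% before thinning. HSD17B4 was found in 67.1% of LNCaP_C4-2B cells (64.8% to 69.4%) and 87.2% of LNCaP_FGC cells (85.5% to 88.8%), against 80.6% and 92.3% unthinned. SRD5A3 was found in 28.8% of LNCaP_C4-2B cells (26.7% to 31.1%) and 38.5% of LNCaP_FGC cells (36.1% to 40.9%), against 40.8% and 52.4% unthinned. The intervals of the lines were apart for these 3 genes, but the share of all genes with intervals apart was not computed. Thinning keeps the shift of the median gene, which had a log2 ratio of -0.47 in thinned cells. SRD5A3 lay beside that median there (-0.05), so its shares differed as those of a middle gene would.

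For each less abundant gene the line with the larger share was the same before and after thinning. SRD5A1 had a UMI in 8.59% of LNCaP_C4-2B cells (7.29% to 10.0%) and 18.4% of LNCaP_FGC cells (16.6% to 20.4%), against 14.5% and 26.4% unthinned. HSD17B11 had one in 1.86% of LNCaP_C4-2B cells (1.27% to 2.63%) and 7.33% of LNCaP_FGC cells (6.11% to 8.71%), against 4.22% and 11.4% unthinned, and STS in 2.52% (1.82% to 3.39%) and 5.30% (4.26% to 6.50%), against 3.41% and 8.11%. SULT2B1 overlapped between the lines, with 8.95% of LNCaP_C4-2B cells (7.62% to 10.4%) and 7.83% of LNCaP_FGC cells (6.56% to 9.24%), against 12.9% and 11.9% unthinned. AKR1C3, HSD3B1 and CYP17A1 had no UMI in LNCaP_C4-2B at either depth, and at equal depth in LNCaP_FGC they were seen in 7, 3 and 3 cells. Neither culture contains a cell type that should lack these genes, so the share that free RNA alone would give was not measured.

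**Figure D2:**
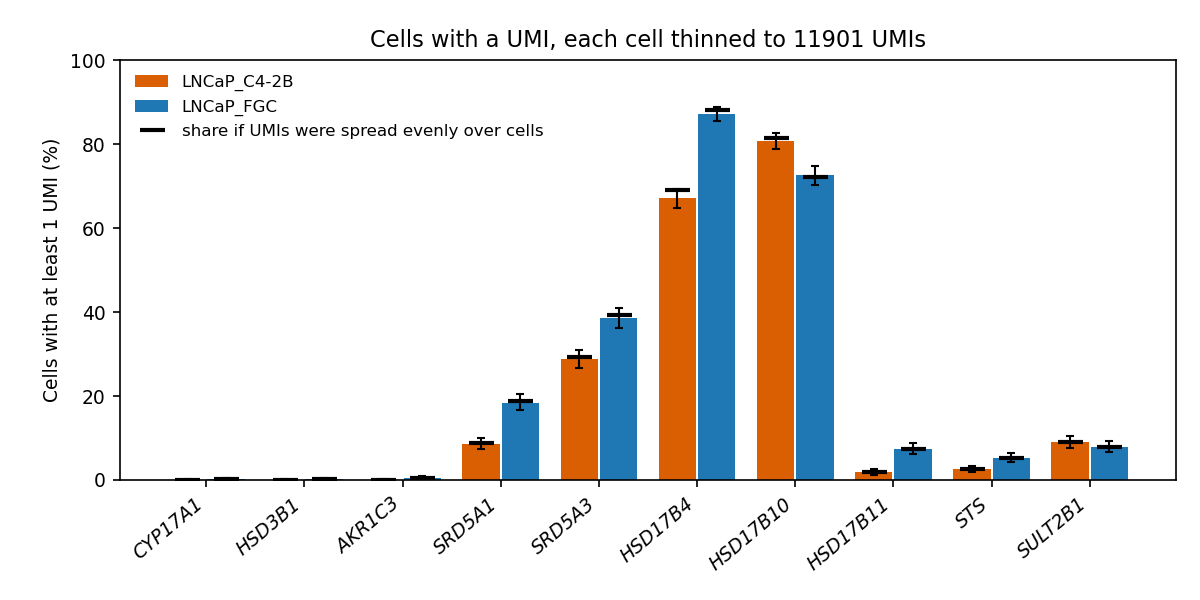
Percent of cells with at least 1 UMI of each enzyme gene after thinning every cell to 11901 UMIs, LNCaP_C4-2B (orange, left of each pair, 1665 cells) and LNCaP_FGC (blue, right, 1623 cells), with exact 95% binomial intervals. Black dashes mark the share if the same UMIs fell on cells at random, and the bars end within about 2 percentage points of them, also for HSD17B4 in LNCaP_C4-2B (67.1% observed, 69.0% at random).

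Observed shares lay close to those of UMIs placed on cells at random. In LNCaP_C4-2B, SRD5A3 UMIs would fall on 29.3% of cells at random and were seen in 28.8%, and SULT2B1 UMIs on 9.05% and were seen in 8.95%. The variance of UMIs over cells divided by their mean, which is 1 for random counts, was 1.08 for HSD17B4 in LNCaP_C4-2B and 1.16 in LNCaP_FGC, the highest of the enzyme genes in each line. For HSD17B10 it was 1.00 in LNCaP_C4-2B and 1.02 in LNCaP_FGC. Single cells carried a median of 2 of the 10 enzyme genes in both lines, with at most 5 in LNCaP_C4-2B and 7 in LNCaP_FGC. SRD5A1 and SRD5A3 were counted together in 43 LNCaP_C4-2B cells (2.58%, 1.88% to 3.46%) and 122 LNCaP_FGC cells (7.52%, 6.28% to 8.91%). AKR1C3 and SRD5A1 were counted together in 0 cells of LNCaP_C4-2B and 2 cells of LNCaP_FGC.

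The enzyme genes were also compared by cell cycle phase, called within each line from S and G2M gene scores. AKR1C3, HSD3B1 and CYP17A1 had too few UMIs for every phase contrast, and the other enzyme genes were compared. Over S against G1 in LNCaP_C4-2B, 1 gene was called (21.7% of all genes tested, in either direction), and over G2M against G1 also 1 (20.2%). In LNCaP_FGC, 0 were called over S (20.2%) and 1 over G2M (21.1%). With so few genes compared, these are counts of the size that those shares give. STS had 3.09 CPM in S cells and 1.56 CPM in G1 cells of LNCaP_C4-2B, a ratio of 1.98 (1.09 to 3.60) from 26 and 24 UMIs. In LNCaP_FGC its level was 2.74 CPM in G2M cells against 5.55 CPM in G1 cells, a ratio of 0.493 (0.315 to 0.754). HSD17B11 had 3.33 CPM in G2M cells and 1.89 CPM in G1 cells of LNCaP_C4-2B, a ratio of 1.76 (1.06 to 2.97), and when both lines were scored together the ratio was 1.57 (0.956 to 2.62), just under the threshold relative to the median gene.

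SRD5A1 was higher in G2M than in G1 cells by CPM in the 2 lines without reaching the threshold. In LNCaP_C4-2B it had 9.83 CPM in G2M cells and 7.30 CPM in G1 cells (ratio 1.35, 1.03 to 1.77), and in LNCaP_FGC 21.5 CPM in G2M cells and 16.2 CPM in G1 cells (ratio 1.33, 1.11 to 1.60). Over S against G1 its ratio was 1.21 (0.887 to 1.63) in LNCaP_C4-2B and 0.887 (0.711 to 1.10) in LNCaP_FGC, and both intervals included 1. SRD5A3 was likewise above 1 in G2M, with ratios of 1.17 (1.01 to 1.35) in LNCaP_C4-2B and 1.29 (1.14 to 1.45) in LNCaP_FGC. Its ratios over S against G1 were 1.13 (0.959 to 1.32) in LNCaP_C4-2B and 1.20 (1.05 to 1.36) in LNCaP_FGC. These intervals are of CPM, and the median gene itself had a log2 ratio of G2M over G1 of 0.09 in LNCaP_C4-2B and 0.05 in LNCaP_FGC. Between the lines, STS was furthest apart in G1 cells, at 1.56 CPM in LNCaP_C4-2B and 5.55 CPM in LNCaP_FGC, against 3.09 and 4.75 CPM in S cells and 1.32 and 2.74 CPM in G2M cells. The log2 ratio in G1 cells was -1.83 for STS and -1.86 for HSD17B11, beside -1.26 and -1.44 over all cells, and the difference between phases was not tested.

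ETV1, an ETS transcription factor gene rearranged in this lineage, splits LNCaP_FGC cells into those with and without its transcript, while in LNCaP_C4-2B it was at 0 CPM. At equal depth, 616 LNCaP_FGC cells had 0 ETV1 UMIs and 723 had at least 2. AKR1C3, HSD3B1 and CYP17A1 had too few UMIs for that split. Of the other enzyme genes only SULT2B1 was called, a count of the size that the background gives, where 12.7% of all genes tested were called. SULT2B1 had 4.23 CPM in cells with 0 and 8.48 CPM in cells with at least 2 (ratio 0.498, 0.316 to 0.768). SRD5A1 had 20.9 CPM in cells with 0 and 14.3 CPM in cells with at least 2 (ratio 1.46, 1.14 to 1.87), SRD5A3 49.5 and 35.8 CPM (1.38, 1.19 to 1.62), and HSD17B4 158 and 198 CPM (0.800, 0.742 to 0.863). HSD17B10 did not separate the cells, at 112 CPM with 0 and 106 CPM with at least 2 (ratio 1.06, 0.962 to 1.17).

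Clusters of cells, made within each line without the 10 genes and with phase scores regressed out, carried different amounts of the enzyme transcripts. Of the 7 enzyme genes with at least 50 UMIs, 3 had intervals apart between their lowest and highest cluster in LNCaP_C4-2B (4 clusters), where 44.2% of all genes with as many UMIs did, and 7 in LNCaP_FGC (7 clusters), where 60.2% of all such genes did. These clusters are ranges of cells within 1 library and are named only by number. SULT2B1 varied the most in LNCaP_C4-2B, from 5.20 CPM (3.94 to 6.73) in cluster 0 to 14.4 CPM (10.6 to 19.1) in cluster 3, a group of 216 cells led by MT1X and NDUFA4L2 with a median of 13728.5 UMIs per cell. HSD17B10 had its lowest level in that same cluster 3, 87.8 CPM (78.1 to 98.5), against 152 CPM (145 to 160) in cluster 0.

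In LNCaP_FGC, SULT2B1 ranged from 2.10 CPM (1.01 to 3.86) in cluster 3 to 13.5 CPM (10.9 to 16.6) in cluster 1. Those clusters were also the lowest and highest for KLK3, at 36.1 CPM and 1749 CPM. The clusters in between did not all keep that order. Cluster 6 had 303 CPM of KLK3 and 7.73 CPM of SULT2B1 (3.34 to 15.2), and cluster 2 had 574 CPM and 5.76 CPM (4.05 to 7.93). In LNCaP_C4-2B the order of SULT2B1 over the 4 clusters was that of KLK3: 5.20, 7.54, 8.46 and 14.4 CPM of SULT2B1 beside 2178, 2691, 2958 and 4444 CPM of KLK3. The SULT2B1 intervals of clusters 0 (3.94 to 6.73), 1 (6.02 to 9.33) and 2 (6.72 to 10.5) overlapped, so their order is not resolved. SRD5A1 and HSD17B11 were lowest where SULT2B1 was highest in LNCaP_FGC, with 10.2 CPM (7.89 to 12.9) and 2.74 CPM (1.62 to 4.32) in cluster 1. Both were highest in cluster 6, 54 cells led by MMP12, IL32, BIRC3 and CXCL10, at 38.6 CPM (27.6 to 52.6) for SRD5A1 and 17.4 CPM (10.3 to 27.5) for HSD17B11. STS also peaked there, at 12.6 CPM (6.69 to 21.5) from 13 UMIs, against 2.28 CPM (0.985 to 4.50) in cluster 5. With coarser clusters (resolution 0.3 in place of 0.5, 4 clusters in LNCaP_FGC) the highest level over the lowest was 2.02 for SRD5A1 in place of 3.79, 2.38 for HSD17B11 in place of 6.36 and 2.44 for STS in place of 5.50, and the STS intervals then overlapped.

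**Figure D3:**
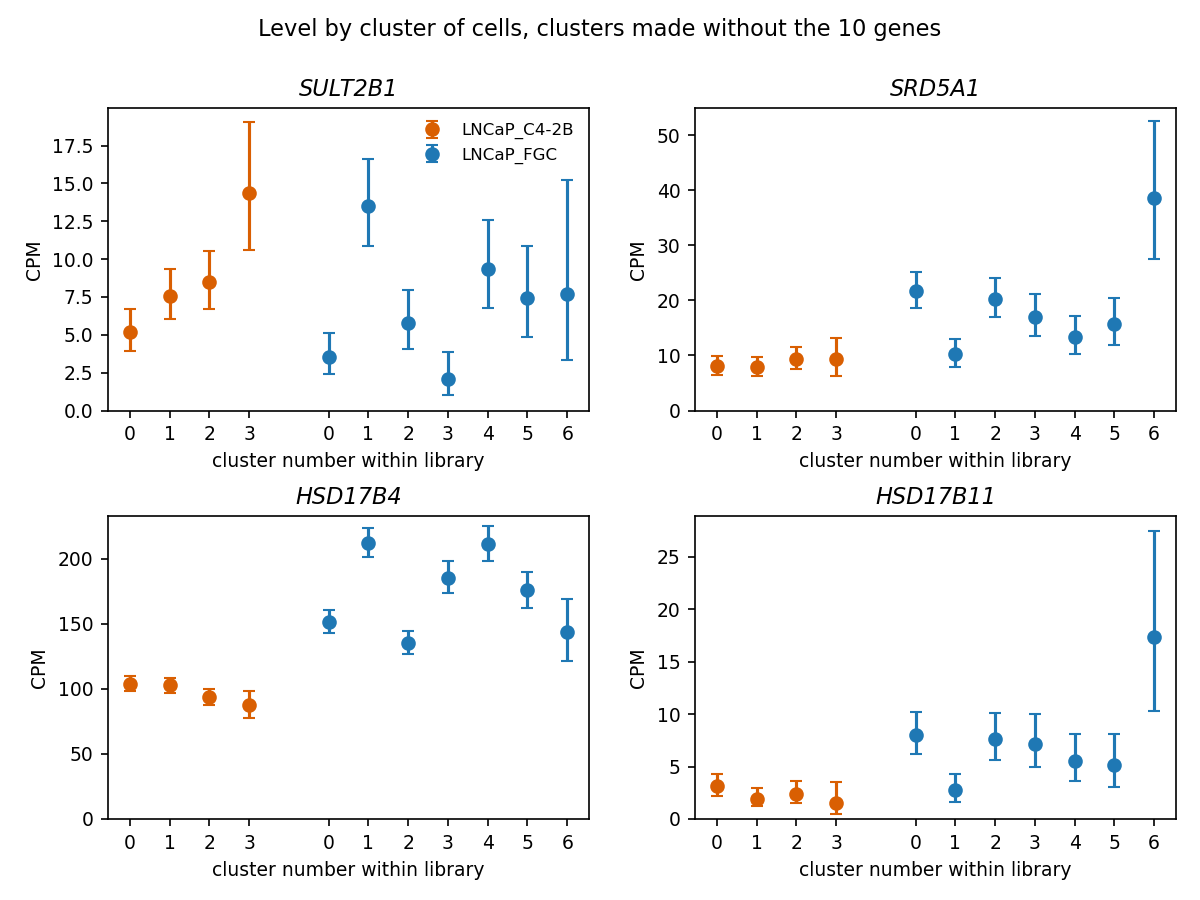
CPM of SULT2B1, SRD5A1, HSD17B4 and HSD17B11 by cluster of cells within LNCaP_C4-2B (orange, left, clusters 0 to 3) and LNCaP_FGC (blue, right, clusters 0 to 6), with exact 95% Poisson intervals. SULT2B1 is highest in LNCaP_C4-2B cluster 3 (14.4 CPM) and LNCaP_FGC cluster 1 (13.5 CPM), and SRD5A1 is highest in LNCaP_FGC cluster 6 (38.6 CPM), while its LNCaP_C4-2B clusters lie between 7.90 and 9.40 CPM.

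Correlations across single cells were weak and are given as description only. Over 1665 LNCaP_C4-2B cells, the genes most like HSD17B10 were RPL22L1 (Pearson r = 0.16), EIF4A1 (0.15) and C1QBP (0.15), and over 1623 LNCaP_FGC cells those most like HSD17B4 were MALAT1 (0.19) and KLK3 (0.15). Only genes with at least 0.1 UMIs per cell in a line were compared. That left out AKR1C3, HSD3B1, CYP17A1 and STS in both lines and HSD17B11 in LNCaP_C4-2B. No other enzyme gene that was compared had a partner at 0.15 or more. Among the enzyme genes that were compared, the 25 pair correlations ran from -0.09 to 0.04, where a pair measured in both lines gave a value for each.

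The other 68 genes of the pathway, in 13 groups, were set beside these enzymes, and 44 passed the filter. Of these, 10 were called higher in LNCaP_C4-2B, 17 lower and 17 neither, where the background of all tested genes is 26.0% higher and 26.4% lower. Both counts include genes counted in a single line, whose call the filter fixed. The median log2 ratio was -0.92, close to the -0.93 of the enzyme genes described. Ahead of the enzymes stand the genes of cholesterol delivery and side chain cleavage, where 3 of 6 were called higher and 0 lower. CYP11A1, among the 3, had 92 UMIs in LNCaP_C4-2B and 77 in LNCaP_FGC. The interval of its CPM ratio, 0.873 to 1.64, included 1, and it lay 1.67-fold above the median gene (1.22 to 2.30). TSPO, an outer mitochondrial membrane protein that binds cholesterol, had 439 CPM in LNCaP_C4-2B and 212 CPM in LNCaP_FGC (ratio 2.07, 2.01 to 2.12), and the reductase FDXR 40.6 and 18.1 CPM (2.25, 2.04 to 2.47). Its partner FDX1, the ferredoxin, had 33.4 CPM in LNCaP_C4-2B and 69.1 CPM in LNCaP_FGC and was not called. Electron donors of CYP17A1 were abundant where the enzyme itself was near the floor, with POR at 36.3 CPM in LNCaP_C4-2B and 81.0 CPM in LNCaP_FGC (called lower) and CYB5A at 298 and 459 CPM (not called).

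Among hydroxysteroid dehydrogenases outside the 10, HSD17B8, a mitochondrial enzyme of fatty acid synthesis, had 47.9 CPM in LNCaP_C4-2B and 23.2 CPM in LNCaP_FGC (ratio 2.07, 1.90 to 2.25). HSD17B12, which acts in fatty acid elongation, had 42.9 and 70.4 CPM and was not called. In the oxidative group, HSD17B10, HSD17B8 and 3 others were called higher, making 5 of 9 measured, and 2 lower. The background of all tested genes is 26.0% higher and 26.4% lower. HSD17B14, among the 3 others and named as an exception for its few UMIs, had 33 UMIs in LNCaP_C4-2B and 28 in LNCaP_FGC. Relative to the median gene its interval, 0.968 to 2.84, included 1. Of the genes that serve STS and the sulfotransferases, SUMF2, a paralog of the sulfatase-activating gene SUMF1, had 69.3 CPM in LNCaP_C4-2B and 54.7 CPM in LNCaP_FGC and was called higher. PAPSS1, which makes the sulfate donor, had 19.8 and 46.0 CPM and was called lower, and SULT1A1 (15.6 and 31.2 CPM) and SUMF1 (10.7 and 20.5 CPM) were not called.

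Glucuronidation makes androgens soluble for export. All 9 genes of that group were called lower in LNCaP_C4-2B, as were 26.4% of all tested genes. UGT2B4, UGT2B7, UGT2B10 and UGT1A1 had 0 UMIs in LNCaP_C4-2B and 31, 15, 82 and 22 UMIs in LNCaP_FGC. They passed the filter through LNCaP_FGC alone, which fixed their call. UGDH, which makes the glucuronic acid donor, had 15.4 CPM in LNCaP_C4-2B and 76.6 CPM in LNCaP_FGC. UGT2B15 had 25 UMIs in LNCaP_C4-2B and 697 UMIs in LNCaP_FGC and UGT2B17 5 and 686, and these near-identical copies may exchange reads. H6PD, which supplies reduced cofactor in the endoplasmic reticulum, had 14.7 and 20.3 CPM and was not called.

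**Figure D4:**
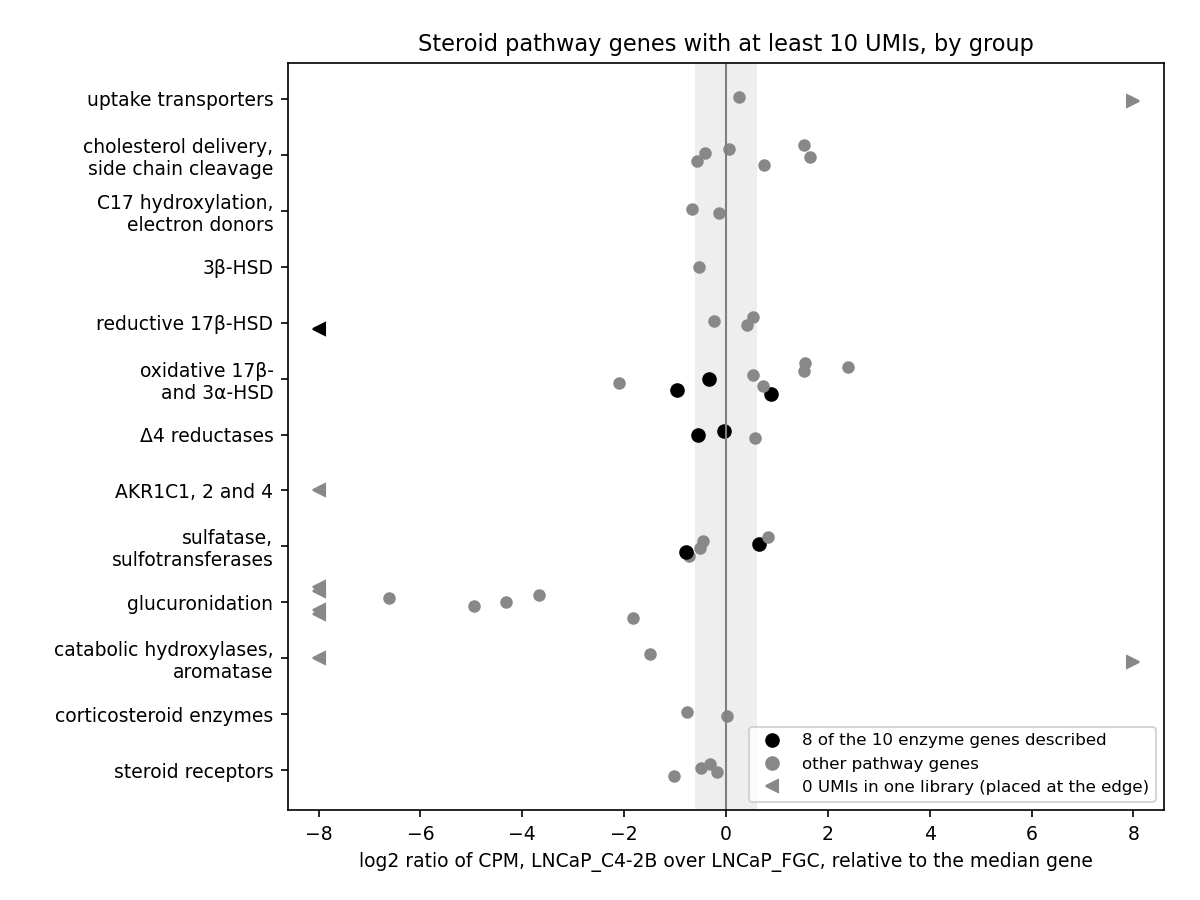
log2 CPM ratio of LNCaP_C4-2B over LNCaP_FGC relative to the median gene (0) for pathway genes with at least 10 UMIs, by group, with the 8 enzyme genes described that passed in black, other genes in gray, the range within 1.5-fold of the median shaded and genes with 0 UMIs in one library as triangles at the edge. All 9 glucuronidation genes lie to the left of the shaded range, with UGT2B4, UGT2B7, UGT2B10 and UGT1A1 as triangles. Of the oxidative dehydrogenase genes, 5 of 9, HSD17B10 among them, lie to the right of it.

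Several genes that complete the classical steroid route had no UMI in either line, namely SRD5A2, HSD3B2, AKR1C4, CYP3A4, CYP7B1, CYP19A1 (aromatase), CYP11B1, CYP11B2, SLCO1A2 and SLC10A6. HSD17B3, the testicular enzyme for testosterone, had 0 UMIs in LNCaP_C4-2B and 1 in LNCaP_FGC. A gene with 0 UMIs is not shown to be absent, since the exact interval of its level reaches 0.105 CPM. In the other direction, CYP1B1, a hydroxylase of estrogens, had 309 UMIs in LNCaP_C4-2B and 0 in LNCaP_FGC, at least 103-fold higher against the floor of 3 UMIs and from 83.3-fold by the exact interval. SLCO3A1, an organic anion transporter, had 84 UMIs in LNCaP_C4-2B and 0 in LNCaP_FGC, at least 28-fold higher against the floor and from 22.3-fold by the interval. CYP1B1 and SLCO3A1, like UGT2B15 and UGT2B17, were singled out after their values were seen.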

How the data were processed

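Libraries of cultured LNCaP_C4-2B and LNCaP_FGC cells were compared, with 1850 cells and 19000 mean UMIs per cell in each after the authors filtered cells by genes, reads, hemoglobin, ribosomal and mitochondrial share and doublet score and then thinned cells and reads. The deposited files hold UMI counts for each gene in each cell, made by the authors with Cell Ranger 6.0 on GRCh38 and handled in Seurat per the submitters' processing notes. The sources used here do not say whether intronic reads were counted. Thinning hides any difference in RNA content between the lines.

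UMIs were summed per library or group of cells and scaled to CPM. Ratios have exact conditional binomial intervals, levels exact Poisson intervals and shares Clopper-Pearson intervals, all at 95%. Only the ratio intervals were checked on simulated counts, and not for counts near the floor. The median gene was taken over genes with at least 10 UMIs, and calls used 1.5-fold. Phase contrasts needed 20 UMIs. Phases (43 S and 54 G2M genes) and clusters (3000 variable genes without the enzyme genes, 10 components, resolution 0.5) were made in Seurat 5.3.0, and edgeR 4.0.16 gave TMM factors only. No doublets were called again. Positions are from GENCODE release 44. The alternatives were other scalings, phases, filters, thresholds and subsets of cells. Named pathway genes outside the enzymes had at least 20 CPM in either line, up to 2 highest and 2 lowest ratios per group, or were under the floor, with the exceptions stated and the copies of AKR1C3, and a gene that met this rule but is not named is not reported here. Correlated genes were named at r of at least 0.15, among genes with at least 0.1 UMIs per cell. The enzyme genes, pathway lists and marker lists were chosen with earlier results of these data known.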

Additional observations from a re-analysis of the deposited data

How the results depend on the processing

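No paired analysis was possible because each line has 1 library. Of the enzyme genes, 2 were called higher and 3 lower in LNCaP_C4-2B. The count called higher was 1 with G1 cells only and 1 without the LNCaP_FGC cells with 0 ETV1 UMIs. It was 0 at a 2-fold threshold and 1 with at least 100 UMIs. The count called lower was 1 at 2-fold, namely AKR1C3, whose 0 UMIs in LNCaP_C4-2B fix its call at any threshold. SULT2B1 changed sign, with a log2 ratio of -0.12 in G1 cells and -0.13 without the LNCaP_FGC cells with 0 ETV1 UMIs, against 0.16, and the cause was not tested. The call for G2M over G1 in LNCaP_C4-2B fell to 0 genes when both lines were scored together. The pathway counts of 10 higher and 17 lower were 7 and 14 at a 2-fold threshold, where genes counted in a single line stay called. TMM factors left the counts the same, as rescaling must. The other alternatives were not run for these counts. The median gene lay at a log2 ratio of -0.49 by CPM and -0.33 without ribosomal protein and mitochondrial genes in the totals. It lay at -0.03 with TMM factors and -0.02 with median-of-ratios factors. The log2 ratios of the enzyme genes shifted with it. Ratios relative to the median gene cannot change under such rescaling, so these settings were no check on the calls. With 1 library per line, the spread between cultures is unknown, and genes under 3 UMIs are limited by depth.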
